A study of Mus musculus with 20 samples.

Results

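The 6 genes described here mark glutamatergic identity in cortical excitatory neurons: the vesicular glutamate transporter genes Slc17a7 and Slc17a6, and the transcription factor genes Neurod2, Neurod6, Emx1 and Bhlhe22. They were taken by name, and all 6 of 6 were matched to 1 identifier each among the 25317 genes of the count table. RNA was sequenced from the cortex of 3-month-old C57BL/6 mice that carried a heterozygous Foxp2 deletion (3 animals: het729, het786 and hetBT13) or were wild type (5 animals: wt734, wt736, wt785, wtBT13 and wtBT14). Each animal gave 2 libraries, 1 of RNA on GFP-tagged ribosomes pulled down with anti-GFP serum (bacTRAP, called IP) and 1 of the lysate before the pull-down (Input). A replicate is an animal: the hemispheres of 1 brain were processed together after the hippocampus, the basal ganglia, the diencephalon and the rostral end of the cortex had been cut away. The cells that carry the GFP tag, and the Cre or other means that confines the Foxp2 deletion to the cortex, are not given in the sources used here. A further 4 heterozygous Input libraries, titled IX or IXX, come from het730 and hetBT14, which have no IP, and were kept out of the comparisons.

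A neuron releases glutamate only if a vesicular transporter loads it into synaptic vesicles, and Slc17a7 (VGLUT1) and Slc17a6 (VGLUT2) encode the transporters that do this in most excitatory neurons of the brain. Slc17a7 predominates in neurons of the adult cortex, and Slc17a6 in thalamus, hypothalamus and brainstem. Neurod2 and Neurod6 encode basic helix-loop-helix activators of the excitatory lineage, Emx1 a homeodomain protein of the dorsal telencephalon, and Bhlhe22 a basic helix-loop-helix protein that takes part in giving cortical areas their identity.

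In mm10, with GENCODE vM21 gene models, Slc17a7 (ENSMUSG00000070570) lies on the plus strand of chromosome 7 from 45163949 to 45176142, and Slc17a6 (ENSMUSG00000030500) on the plus strand of the same chromosome from 51622006 to 51671119. Neurod2 (ENSMUSG00000038255) lies on the minus strand of chromosome 11 from 98325415 to 98329648, and Neurod6 (ENSMUSG00000037984) on the minus strand of chromosome 6 from 55677822 to 55681263. Emx1 (ENSMUSG00000033726) spans 85187438 to 85204462 on the plus strand of chromosome 6, and Bhlhe22 (ENSMUSG00000025128), a gene of 1 exon, 18054174 to 18057517 on the plus strand of chromosome 3. All 6 are protein-coding. A gene's count does not separate its transcripts. Only Mir7055 inside Slc17a7 and Gm45072 inside Slc17a6 overlap any of them, and each shares 0 exonic bases with its host.

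RefSeq (GRCm38.p6) gave windows of 250 bases before a transcription start for 5 of the 6 genes, with 2 for Slc17a6, which has starts at 51621830 and 51624637. The windows of the transporter pair and of Neurod2 are printed, since the largest genotype differences described further on are in these 3 genes. Capitals mark CAGATG, a form of the E-box that basic helix-loop-helix proteins of the NeuroD family bind.
Slc17a7, chr7:45163671-45163920, plus strand: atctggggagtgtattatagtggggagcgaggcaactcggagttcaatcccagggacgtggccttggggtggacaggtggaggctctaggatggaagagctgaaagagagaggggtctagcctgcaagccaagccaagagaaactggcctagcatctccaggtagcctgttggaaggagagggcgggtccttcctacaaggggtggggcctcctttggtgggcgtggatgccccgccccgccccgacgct
Slc17a6 first start, chr7:51621580-51621829, plus strand: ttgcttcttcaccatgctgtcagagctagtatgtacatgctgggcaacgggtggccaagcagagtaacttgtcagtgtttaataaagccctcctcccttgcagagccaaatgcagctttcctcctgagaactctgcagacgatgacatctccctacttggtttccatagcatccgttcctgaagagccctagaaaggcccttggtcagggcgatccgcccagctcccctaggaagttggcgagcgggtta
Slc17a6 second start, chr7:51624387-51624636, plus strand: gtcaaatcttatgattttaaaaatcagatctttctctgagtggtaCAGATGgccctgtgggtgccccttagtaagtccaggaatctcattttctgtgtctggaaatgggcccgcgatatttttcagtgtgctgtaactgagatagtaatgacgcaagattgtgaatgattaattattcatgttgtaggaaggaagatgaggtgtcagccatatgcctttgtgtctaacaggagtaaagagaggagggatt
Neurod2, chr11:98329646-98329895, minus strand: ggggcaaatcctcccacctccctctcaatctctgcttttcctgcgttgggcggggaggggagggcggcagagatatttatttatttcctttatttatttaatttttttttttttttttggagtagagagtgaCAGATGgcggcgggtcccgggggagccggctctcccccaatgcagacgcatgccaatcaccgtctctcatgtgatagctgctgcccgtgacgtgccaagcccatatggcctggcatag

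CAGATG was found on either strand in 2 of the 6 windows, beginning 118 bases before the start of Neurod2 and 205 bases before the second start of Slc17a6. It was in 14.44% of all 32851 RefSeq windows of that length. CAGCTG, another E-box, was in none of the 6 windows and in 13% of all windows. TGTTTA, a forkhead core, lay 175 bases before the first start of Slc17a6 and was in 12.03% of all windows, and TAATTA, a homeodomain core, lay 81 bases before its second start and was in 4.84%. A match describes these letters and no binding. The G and C content was 75.6% in the Emx1 window, 61.2% in that of Slc17a7, 52.8% in that of Neurod2, 46.0% in that of Neurod6, and 53.2% and 41.2% in those of Slc17a6, against a median of 52.4% over all windows.

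IP libraries totalled 4917886 to 5337469 counts in heterozygotes and 4061562 to 5754169 in wild types, and Input libraries 2782934 to 4072270 in heterozygotes and 3391291 to 3934152 in wild types. At this depth the counts of the 6 genes in the 16 libraries compared ran from 40 for Bhlhe22 in a heterozygous Input library to 1539 for Neurod6 in a heterozygous IP library. Levels are given as CPM (library-scaled counts, TMM). Foxp2, the deleted gene, had 24.1 to 31.0 CPM in the Input of heterozygotes and 38.05 to 63.9 in that of wild types, without overlap. In IP it had 31.9 to 55.8 CPM in heterozygotes and 45.5 to 103 CPM in wild types, with overlap. The IP library of het729 held 0.398% mitochondrially encoded counts, and the other IP libraries at most 0.127%.

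Per kilobase of exonic sequence, merged over all transcripts of a gene, Neurod6 had the highest level of the 6 genes in every group. Slc17a7 has 5 transcripts, Slc17a6 4 and Emx1 2, and Neurod2, Neurod6 and Bhlhe22 have 1 each. A merged length can exceed that of any single transcript, which lowers the level per kb. In heterozygous IP it stood at 116 ± 4.97 CPM per kb (SD, n = 3), followed by Neurod2 at 26.4 ± 4.11, Slc17a7 at 25.9 ± 0.46, Emx1 at 22.5 ± 4.52, Slc17a6 at 9.42 ± 1.39 and Bhlhe22 at 4.50 ± 1.14. In wild-type IP the order was Neurod6 at 109 ± 9.68 CPM per kb (SD, n = 5), Slc17a7 at 31.5 ± 3.54, Neurod2 at 23.0 ± 1.51, Emx1 at 20.3 ± 2.7, Slc17a6 at 10.8 ± 1.76 and Bhlhe22 at 5.22 ± 1.27. The ranges of Neurod2, Slc17a7 and Emx1 overlapped in heterozygous IP, and those of Neurod2 and Emx1 in wild-type IP. Ranges do not take up that the genes share libraries, and the order per kb within single libraries was not tested.

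In Input the order was led again by Neurod6, at 97.5 ± 3.37 CPM per kb in heterozygotes (SD, n = 3) and 90.8 ± 7.78 in wild types (n = 5), and Slc17a7 came next, at 18.9 ± 2.63 in heterozygotes and 20.0 ± 4.51 in wild types. Neurod2 was at 14.0 ± 2.50 CPM per kb in heterozygous Input and 16.9 ± 3.11 in wild-type Input, and Emx1 was at 11.9 ± 2.26 in heterozygous Input and 12.3 ± 3.82 in wild-type Input. The ranges of these 2 genes overlapped in both Input groups, and in wild-type Input that of Slc17a7 overlapped those of Neurod2 and of Emx1. Bhlhe22 and Slc17a6 closed the order and also overlapped in both, at 4.86 ± 0.18 and 4.32 ± 0.38 CPM per kb in heterozygous Input and at 4.77 ± 0.67 and 5.88 ± 1.43 in wild-type Input.

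**Figure D1:**
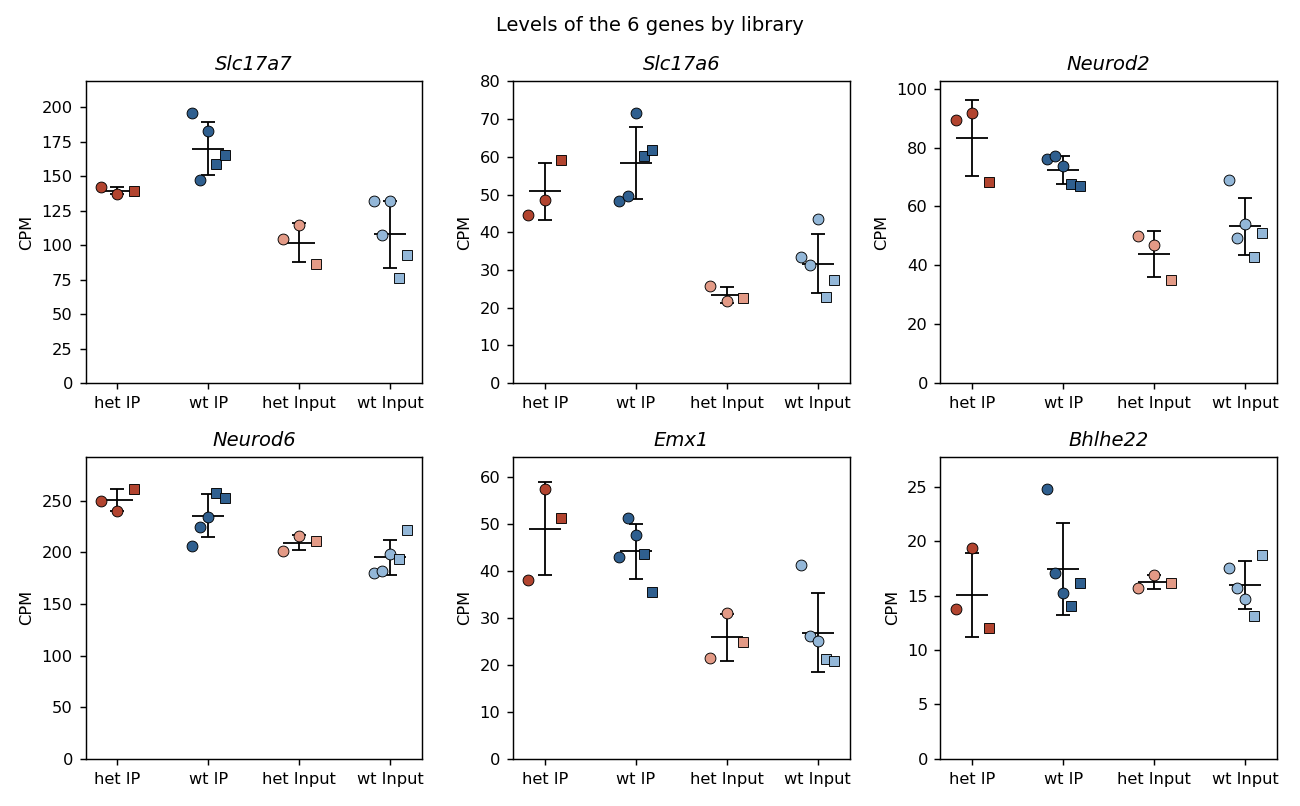
Level of each of the 6 genes in CPM (vertical axis, from 0) in heterozygous (het) and wild-type (wt) IP and Input libraries. Each point is a library, squares are animals with BT in their names and circles those with numbers only, and the lines give mean and SD. For Slc17a7 the 3 heterozygous IP points, at 137 to 142 CPM, lie below all 5 wild-type IP points, at 147 to 195 CPM.

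The first comparison asks how RNA on the tagged ribosomes differs from RNA of the whole lysate. Slc17a7, Slc17a6, Neurod2, Neurod6 and Emx1 were higher in IP than in Input in heterozygotes and in wild types, and Bhlhe22 did not pass the test in either (edgeR quasi-likelihood test with animal as a block, Benjamini-Hochberg adjusted over 14797 genes, threshold 0.05). The count of genes called higher was thus 5 of 6 in heterozygotes, against 22.6% of all genes, and 5 of 6 in wild types, against 28.5%. The median log2 fold change of the 6 genes was 0.68 in heterozygotes and 0.57 in wild types, where the medians over all genes tested were 0.041 in heterozygotes and 0.035 in wild types. Bulk RNA cannot tell a difference in the share of cells of a type from one in RNA per cell.

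Slc17a7 RNA in the heterozygotes het729, het786 and hetBT13 was at 142, 137 and 139 CPM in IP and at 104, 115 and 86.6 CPM in Input. In the wild types wt734, wt736, wt785, wtBT13 and wtBT14 it was at 195, 147, 182, 159 and 165 CPM in IP and at 132, 107, 132, 76.2 and 93.1 CPM in Input. Every IP library lay above every Input library of either genotype. The log2 fold change of IP over Input was 0.45 in heterozygotes (SE 0.12, edgeR adjusted p = 0.00291) and 0.68 in wild types (SE 0.09, adjusted p = 1.45e-06).

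Slc17a6, the transporter gene used mainly below the cortex, had the largest IP excess of the 6 in both genotypes by the fitted value. Its levels in het729, het786 and hetBT13 were 44.7, 48.7 and 59.3 CPM in IP and 25.6, 21.8 and 22.6 CPM in Input. In wt734, wt736, wt785, wtBT13 and wtBT14 they were 48.4, 49.7, 71.5, 60.2 and 61.8 CPM in IP and 33.5, 31.4, 43.5, 22.9 and 27.3 CPM in Input. All IP libraries again lay above all Input libraries. The log2 fold change was 1.10 in heterozygotes (SE 0.17, edgeR adjusted p = 2.39e-05), a 2.14-fold difference, and 0.89 in wild types (SE 0.12, adjusted p = 3.50e-06), or 1.85-fold.

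Thalamic neurons also express Slc17a6, and a list of 12 genes marking thalamus and diencephalon was set beside it. Their summed level was 131 to 171 CPM in heterozygous IP and 102 to 138 in heterozygous Input, and 143 to 171 CPM in wild-type IP and 113 to 144 in wild-type Input. None of the 12 was at 0 in every library of a group. Of 11 tested, 2 were called higher in IP (Lef1 and Ramp3) and 4 lower in each genotype. Among all genes 22.6% were called higher and 22.1% lower in heterozygotes, and 28.5% higher and 25.6% lower in wild types. The median log2 fold change of the 11 tested genes was -0.31 in heterozygotes and 0.23 in wild types. Ramp3 averaged 63.6 ± 13.1 CPM in heterozygous IP and 19.0 ± 2.02 in heterozygous Input (SD, n = 3). In wild types it averaged 52.5 ± 14.9 CPM in IP and 21.9 ± 3.27 in Input (n = 5). Lef1 averaged 14.4 ± 3.13 CPM in heterozygous IP and 3.61 ± 1.46 in heterozygous Input. In wild types Lef1 was at 17.8 ± 6.14 CPM in IP and 3.80 ± 0.73 in Input. Tcf7l2, a transcription factor gene of thalamic neurons, was among those lower, with a log2 fold change of -0.68 in heterozygotes and -1.10 in wild types. The part of these markers in the Slc17a6 values was not tested.

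Of the NeuroD genes, Neurod2 was at 89.4, 91.6 and 68.3 CPM in the IP and 50.0, 46.8 and 35.1 CPM in the Input of het729, het786 and hetBT13. Wild types held 76.0, 77.3, 73.8, 67.7 and 67.0 CPM in IP and 69.1, 49.3, 53.9, 42.7 and 51.2 CPM in Input, in the order wt734, wt736, wt785, wtBT13 and wtBT14. Only the Input of wt734 reached into the range of the IP libraries. The log2 fold change of IP over Input was 0.91 in heterozygotes (SE 0.12, edgeR adjusted p = 4.77e-06) and 0.46 in wild types (SE 0.09, adjusted p = 0.000258).

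Neurod6, by level the leading gene of the set, had the smallest IP excess among the 5 that passed. Heterozygotes (het729, het786, hetBT13) held 249.7, 239.95 and 261 CPM in IP and 202, 216 and 211 CPM in Input, and wild types (wt734, wt736, wt785, wtBT13, wtBT14) 207, 225, 235, 257 and 253 CPM in IP and 180.0, 182, 199, 194 and 221 CPM in Input. Within each animal IP exceeded Input, though the ranges of the fractions overlapped in wild types. The log2 fold change was 0.25 in heterozygotes (SE 0.09, edgeR adjusted p = 0.0304) and 0.27 in wild types (SE 0.07, adjusted p = 0.00267). The heterozygous call did not hold in 5 of 12 alternatives, where the adjusted p was 0.0603 with DESeq2 size factors, 0.084 with the DESeq2 test, 0.0559 with no filter on low counts, 0.137 without het729 and 0.128 without hetBT13.

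Emx1, the homeobox gene, was at 38.2, 57.5 and 51.4 CPM in the IP and 21.5, 31.2 and 24.98 CPM in the Input of het729, het786 and hetBT13. In wt734, wt736, wt785, wtBT13 and wtBT14 it was at 43.0, 51.3, 47.7, 43.8 and 35.5 CPM in IP and 41.3, 26.1, 25.1, 21.2 and 21.0 CPM in Input. The Input of wt734 stood apart from the other Input libraries and was nearly level with the IP of its own animal. The log2 fold change was 0.91 in heterozygotes (SE 0.17, edgeR adjusted p = 0.000188) and 0.74 in wild types (SE 0.13, adjusted p = 5.95e-05).

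Bhlhe22 was the exception. It was at 13.7, 19.4 and 12.1 CPM in the IP and 15.7, 16.9 and 16.1 CPM in the Input of het729, het786 and hetBT13. Wild types held 24.8, 17.0, 15.3, 14.0 and 16.2 CPM in IP and 17.5, 15.7, 14.7, 13.1 and 18.7 CPM in Input (wt734, wt736, wt785, wtBT13, wtBT14). The fractions overlapped in both genotypes, with log2 fold changes of -0.13 in heterozygotes (SE 0.20, edgeR adjusted p = 0.624) and 0.13 in wild types (SE 0.15, adjusted p = 0.493).

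Animal by animal, IP exceeded Input in 8 of 8 animals for Slc17a7, Slc17a6, Neurod2, Neurod6 and Emx1. Of all genes, 23.0% had IP above Input in all 8 animals. For Bhlhe22, IP exceeded Input in 1 of 3 heterozygotes and 4 of 5 wild types. The size of the difference varied between animals least for Neurod6, whose log2 ratio of IP over Input lay between 0.15 and 0.41. For Emx1 it lay between 0.06 in wt734 and 1.04 in wtBT13 and hetBT13.

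**Figure D2:**
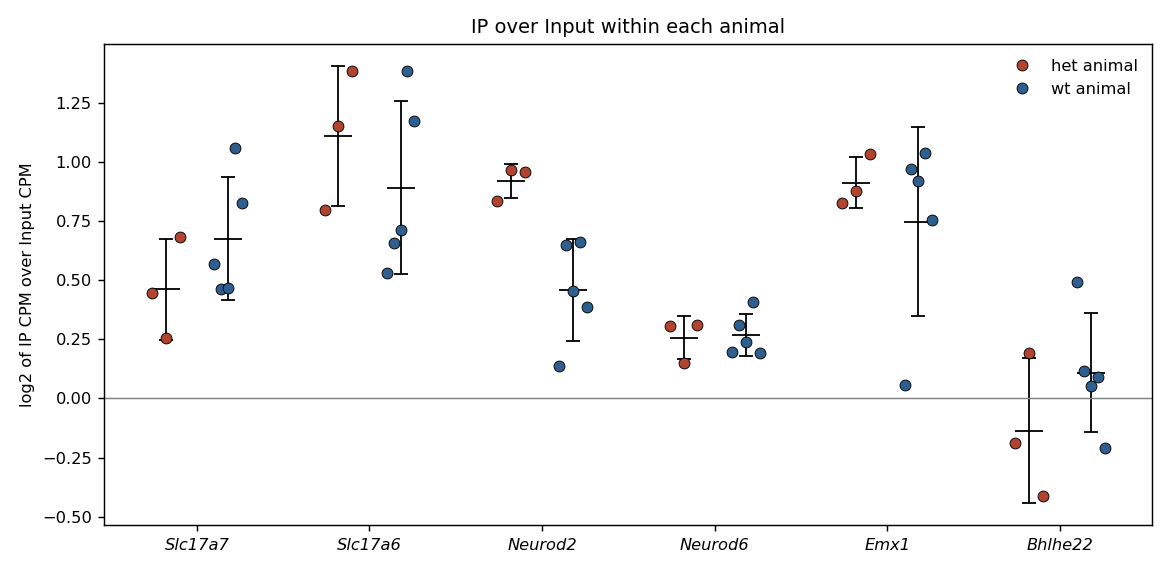
Log2 ratio of IP CPM over Input CPM (vertical axis) in each animal for the 6 genes, heterozygous (het) animals left of wild-type (wt) animals, with mean and SD as lines. The Neurod2 points of the 3 heterozygotes, 0.84 to 0.97, lie above those of the 5 wild types, 0.14 to 0.66, and Bhlhe22 straddles 0.

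Other genes of the same protein families were mostly low or lower in IP. Of 13 relatives in the table, 7 were tested in the IP and Input fit. The shares of all genes were 22.6% higher and 22.1% lower in heterozygotes, and 28.5% higher and 25.6% lower in wild types. In heterozygotes 1 relative was called higher (Bhlhe41, log2 fold change 0.36, edgeR adjusted p = 0.0381) and 4 lower, and in wild types 0 higher and 5 lower. Those lower in both included Olig1 and Olig2, which encode basic helix-loop-helix factors of the oligodendrocyte lineage, with log2 fold changes of -2.34 and -1.66 in heterozygotes and -2.06 and -1.19 in wild types. Bhlhe40, a basic helix-loop-helix gene that responds to activity and the circadian clock, had log2 fold changes of -1.80 in heterozygotes and -1.55 in wild types. Emx2, the paralogue of Emx1, stood at 1.84 ± 0.64 CPM in heterozygous IP and 4.4 ± 1.60 in heterozygous Input (SD, n = 3), and at 1.34 ± 0.59 CPM in wild-type IP and 4.30 ± 0.85 in wild-type Input (n = 5).

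The further vesicular transporter gene Slc17a8 (VGLUT3) averaged 0.47 ± 0.67 CPM in heterozygous IP (SD over 3 animals) and 0.51 ± 0.30 in wild-type IP (SD over 5 animals), and 0.28 ± 0.26 CPM in heterozygous Input and 0.17 ± 0.26 in wild-type Input. Slc17a9, Neurod4, Neurog1, Neurog2 and Bhlhe23 were also below 1 CPM on average in every group, too low for a statement on change. Neurod1, the paralogue of Neurod2 and Neurod6, was at 20.6 ± 5.37 CPM in heterozygous IP and 24.6 ± 1.25 in heterozygous Input (SD, n = 3), and at 19.0 ± 1.22 CPM in wild-type IP and 26.8 ± 2.89 in wild-type Input (n = 5). Slc17a5, which encodes the lysosomal sialic acid transporter of the family, was at 30.0 ± 6.85 CPM in heterozygous IP, 31.0 ± 4.48 in wild-type IP, 24.2 ± 3.81 in heterozygous Input and 27.3 ± 5.43 in wild-type Input.

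Not every transcription factor gene of cortical excitatory neurons was higher in IP. Of 24 tested on that list, 9 were called higher and 9 lower in heterozygotes, and 8 higher and 10 lower in wild types. Of all genes, 22.6% were called higher and 22.1% lower in heterozygotes, and 28.5% higher and 25.6% lower in wild types. Tle4 and Tbr1, genes of deep-layer neurons, were among the higher ones, with log2 fold changes of 1.26 and 0.88 in heterozygotes and 1.23 and 0.75 in wild types. Bcl11a and Hivep2 were higher as well, by 0.55 and 2.01 in heterozygotes and by 0.51 and 1.86 in wild types on the log2 scale. Among the lower ones were Etv1, a gene of layer 5, Id2 and Cux1, with log2 fold changes of -1.31, -0.99 and -0.80 in heterozygotes and -1.06, -0.92 and -0.72 in wild types.

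Genes that supply glutamate or fill vesicles, 22 on their list and all tested, also went both ways, with 5 higher and 7 lower in heterozygotes and 7 higher and 5 lower in wild types. The shares of all genes were 22.6% higher and 22.1% lower in heterozygotes, and 28.5% higher and 25.6% lower in wild types. The synaptic vesicle genes Sv2a and Sv2b were among the higher ones, by 0.45 and 0.44 in heterozygotes and by 0.37 and 0.47 in wild types. Atp6v0c, a subunit of the proton pump that powers vesicle loading, was lower, with log2 fold changes of -0.74 in heterozygotes and -0.70 in wild types, as was Syp, which encodes synaptophysin, with -0.49 in each genotype.

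Markers of inhibitory neurons, astrocytes, striatum, oligodendrocytes and microglia were mostly lower in IP. Among all genes tested, 22.1% were called lower in heterozygotes and 25.6% in wild types, and 22.6% and 28.5% were called higher. Of 17 inhibitory neuron genes tested, 16 were called lower and 1 (Reln, log2 fold change 1.98 in heterozygotes and 2.19 in wild types) higher in each genotype. Of 10 astrocyte genes, 9 were lower and 1 (Aldh1l1) higher in each. Of 11 striatal genes 10 were lower in heterozygotes and 11 in wild types, and of 8 oligodendrocyte genes 7 in each. In heterozygotes 6 of 8 microglial genes, 2 of 5 oligodendrocyte precursor genes and 4 of 6 vascular genes were lower. In wild types these counts were 5 of 8, 1 of 5 (with Cspg4 higher) and 3 of 6. Of 8 hippocampal genes, 2 were higher and 2 lower in heterozygotes, and 3 higher and 2 lower in wild types.

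**Figure D3:**
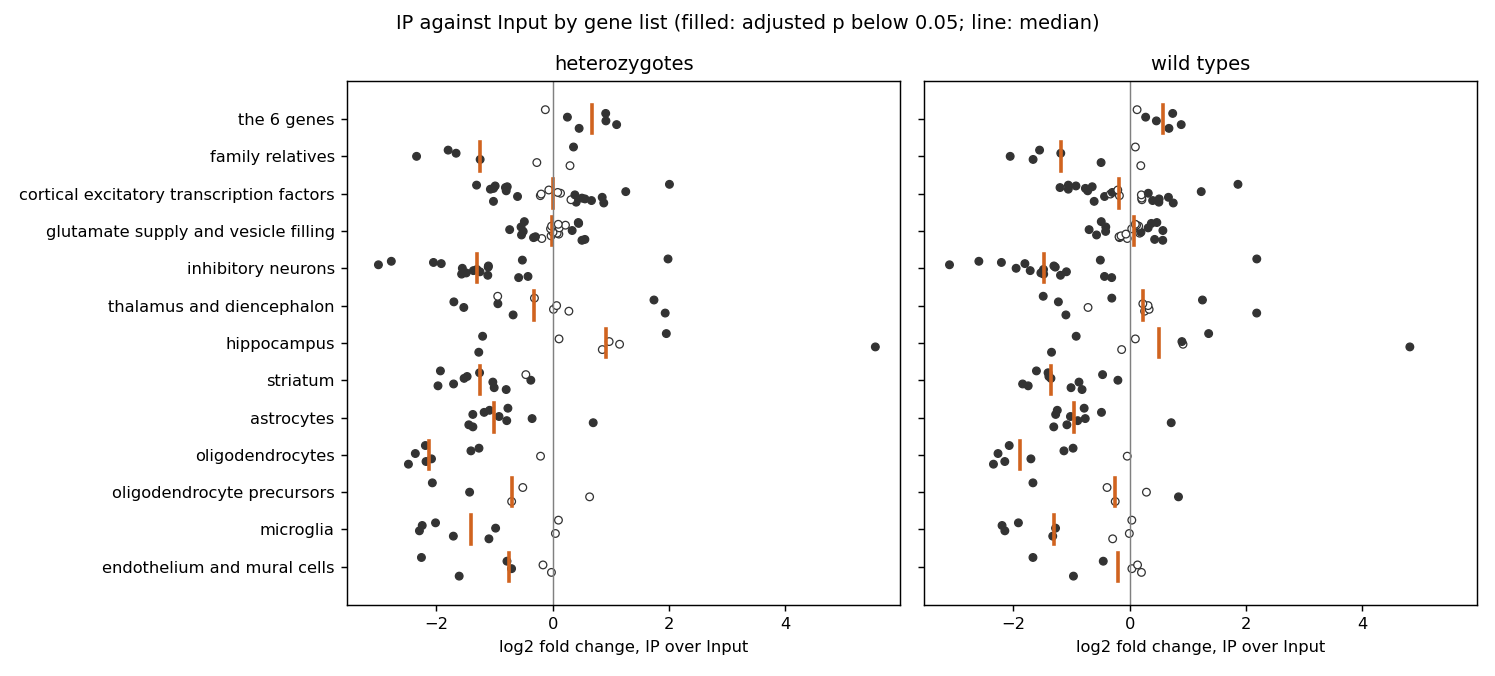
Log2 fold change of IP over Input (horizontal axis, edgeR) for each tested gene of each list (rows), in heterozygotes on the left and wild types on the right. Filled points passed the adjusted threshold of 0.05, and orange lines are list medians, which stand at 0.68 in heterozygotes and 0.57 in wild types for the 6 genes, and at -1.30 in heterozygotes and -1.48 in wild types for inhibitory neuron genes.

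The genotype comparison asks whether the heterozygous Foxp2 deletion changed these genes. None of the 6 genes passed in IP or in Input. With edgeR 0 of 14755 genes were called in IP (0.0%) and 0 of 13870 in Input (0.0%). Unadjusted p-values were below 0.05 for 604 genes in IP and 979 in Input, and DESeq2 called 3 genes in IP and 0 in Input, none of them among the 6. The smallest p that an exact permutation of 3 against 5 animals can give is 0.0179, and 12 such tests were run over the 6 genes and 2 fractions, with p-values given unadjusted.

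In IP, Slc17a7 was the gene of the set with the smallest p. It averaged 139 ± 2.50 CPM in heterozygotes (SD, n = 3) and 170 ± 19.1 CPM in wild types (n = 5), which is 82.1% of wild type. The highest heterozygote, at 142 CPM, lay below the lowest wild type, at 147 CPM, and 1.74% of all genes were lower in heterozygotes without overlap. The log2 fold change was -0.29 (SE 0.10, edgeR p = 0.0117 unadjusted and 0.981 adjusted), and the exact permutation test, two-sided, gave p = 0.0536. Over 9 alternatives the log2 difference ran from -0.33 to -0.22 and the exact permutation p between 0.0286 and 0.0952, and only 1, without wt736, the lowest wild type, gave a p below 0.05. The log2 difference was -0.22 among BT-named animals (1 against 2) and -0.32 among animals named by number (2 against 3).

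The other 5 genes overlapped between genotypes in IP. Slc17a6 averaged 50.9 ± 7.52 CPM in heterozygotes (SD, n = 3) and 58.3 ± 9.53 CPM in wild types (n = 5), with an exact permutation p of 0.25. Neurod2 had the opposite sign, at 83.1 ± 12.9 CPM in heterozygotes and 72.4 ± 4.73 in wild types (exact permutation p = 0.143). Over 9 alternatives the log2 difference of Neurod2 ran from 0.11 to 0.32 and the exact permutation p between 0.0476 and 0.333, and only 1, without hetBT13, gave a p below 0.05. The log2 difference of Neurod2 was 0.02 among BT-named animals and 0.26 among animals named by number.

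Neurod6 averaged 250.3 ± 10.7 CPM in heterozygous IP and 235 ± 20.8 in wild-type IP (exact permutation p = 0.304). Emx1 averaged 49.1 ± 9.87 CPM in heterozygous IP and 44.3 ± 5.91 in wild-type IP (exact permutation p = 0.464), with log2 differences of 0.38 among BT-named animals and -0.01 among animals named by number. Bhlhe22 averaged 15.0 ± 3.82 CPM in heterozygotes and 17.5 ± 4.24 CPM in wild types (exact permutation p = 0.429). The fitted log2 fold changes of these 5 genes ran from -0.23 for Bhlhe22 to 0.19 for Neurod2. They moved with the 12 alternatives without a change of sign, between -0.45 and -0.0705 for Bhlhe22, between 0.0114 and 0.29 for Emx1, and between 0.11 and 0.31 for Neurod2. For Slc17a6 they lay between -0.32 and -0.12, and for Neurod6 between 0.0363 and 0.12.

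In Input all 6 genes overlapped between genotypes, where 5.29% of all genes did not overlap. Slc17a6 had the smallest p, at 23.3 ± 2.05 CPM in heterozygotes (SD, n = 3) and 31.7 ± 7.74 CPM in wild types (n = 5), which is 73.5% of wild type. Its log2 fold change was -0.43 (SE 0.18, edgeR p = 0.0281 unadjusted and 0.683 adjusted) and its exact permutation p 0.107. Among BT-named animals the log2 difference was -0.15 and among animals named by number -0.59. Over 10 alternatives the log2 difference by level ran from -0.52 to -0.27 and the exact permutation p between 0.0571 and 0.190. The value of -0.27 came with the IX and IXX libraries included.

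Neurod2 averaged 43.9 ± 7.87 CPM in heterozygous Input and 53.2 ± 9.77 CPM in wild-type Input (exact permutation p = 0.25). Slc17a7 was at 102 ± 14.2 CPM in heterozygotes and 108 ± 24.3 CPM in wild types (exact permutation p = 0.732), and Neurod6 at 209.5 ± 7.25 CPM in heterozygotes and 195 ± 16.7 CPM in wild types (p = 0.214). Emx1 was at 25.9 ± 4.93 CPM in heterozygotes and 26.9 ± 8.34 CPM in wild types (exact permutation p = 0.929), and Bhlhe22 at 16.2 ± 0.61 CPM in heterozygotes and 15.96 ± 2.23 CPM in wild types (p = 0.821). Of these 5 genes, the sign was negative for Slc17a7, Neurod2 and Emx1 and positive for Neurod6 and Bhlhe22.

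**Figure D4:**
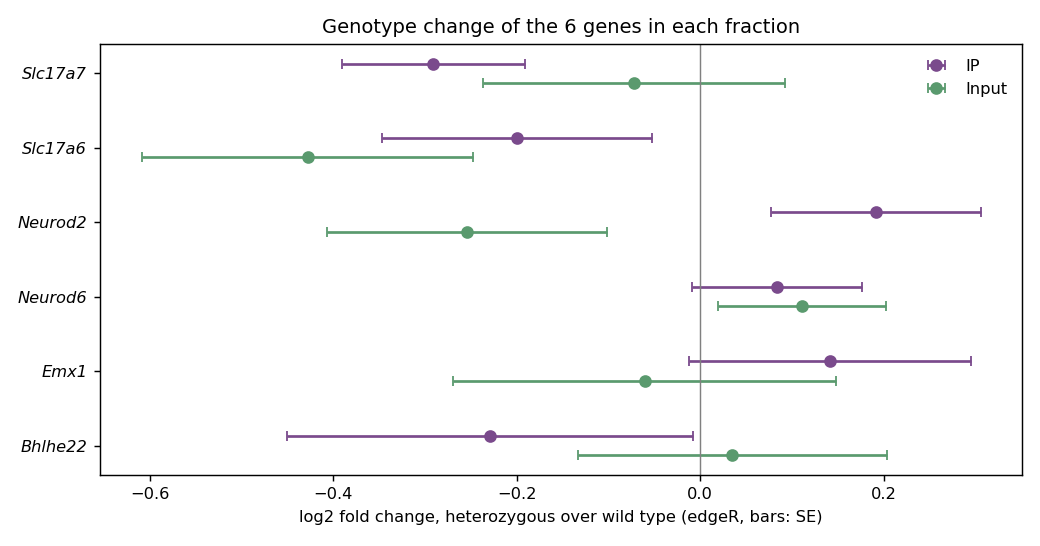
Log2 fold change of heterozygous over wild type (horizontal axis, edgeR, bars SE) for the 6 genes in IP and in Input. Slc17a7 in IP at -0.29 and Slc17a6 in Input at -0.43 lie farthest below 0, and none of the 12 values passed the adjusted threshold.

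No gene of any list passed in a genotype comparison. The lists of excitatory transcription factors and of glutamate supply had median log2 genotype differences of 0.04 and -0.0033 in IP and of 0.07 and 0.05 in Input. Over all genes the median was 0.0032 in IP and 0.0055 in Input. Several lists of glial and vascular markers, and that of hippocampal genes, had medians below 0 in heterozygotes. For hippocampal genes the median log2 difference was -0.15 in IP (2 of 9 genes above 0) and -0.21 in Input (1 of 5). It was -0.06 in IP and 0.02 in Input for inhibitory neurons, -0.01 and -0.02 for thalamus and diencephalon, and 0.02 and 0.05 for striatum. In IP the median log2 difference was -0.93 for oligodendrocyte precursors (0 of 5 genes above 0), -0.60 for endothelium and mural cells (0 of 6), -0.45 for astrocytes (2 of 10), -0.32 for microglia (0 of 8) and -0.23 for oligodendrocytes (1 of 8). In Input it was -0.43 for astrocytes and -0.26 for microglia, and -0.0778 for oligodendrocyte precursors, -0.0967 for endothelium and mural cells and -0.0789 for oligodendrocytes. Summed over the list, precursor genes had 15.8 to 20.5 CPM in the IP of heterozygotes and 20.6 to 40.9 CPM in the IP of wild types, and vascular genes 58.7 to 70.03 CPM in heterozygotes and 74.3 to 112 CPM in wild types, both without overlap. The microglial sums in IP were 67.5 to 89.98 CPM in heterozygotes and 86.5 to 113 CPM in wild types, and overlapped. The summed level of the 10 astrocyte genes also overlapped in IP, and was 579 to 635 CPM in the IP of heterozygotes and 621 to 830 CPM in the IP of wild types, with none at 0. In Input it was 916 to 998 CPM in heterozygotes and 1051 to 1557 CPM in wild types. The part of these markers in the values of the 6 genes was not tested. The summed level of the 6 genes themselves was 578 to 594 CPM in the IP of heterozygotes and 567.7 to 625.4 CPM in the IP of wild types. In Input it was 396 to 448 CPM in heterozygotes and 370.3 to 473 CPM in wild types, so the genotypes overlapped in both fractions.

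Whether the IP excess differed between genotypes was tested as an interaction in the fit of 16 libraries, and the values share their libraries with the comparisons above. With edgeR 0 of 14797 genes (0.0%) were called, 454 had an unadjusted p below 0.05, and DESeq2 called 0. Neurod2 had the smallest p of the 6 genes, with an IP excess larger in heterozygotes by 0.46 on the log2 scale (SE 0.15, edgeR adjusted p = 1.0). By unadjusted p it ranked 42 of 14797 genes. Its log2 ratio of IP over Input was 0.84, 0.97 and 0.96 in het729, het786 and hetBT13, and 0.14, 0.65, 0.45, 0.66 and 0.39 in wt734, wt736, wt785, wtBT13 and wtBT14. The genotypes did not overlap, as was so, with heterozygotes higher, for 1.43% of all genes. An exact permutation test of these ratios, added after the values were seen, gave p = 0.0357 for Neurod2 among 6 genes tested.

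The other 5 genes overlapped between genotypes in this ratio. Slc17a7 averaged 0.46 ± 0.21 in heterozygotes (SD, n = 3) and 0.68 ± 0.26 in wild types (n = 5), and Slc17a6 averaged 1.11 ± 0.30 in heterozygotes and 0.89 ± 0.37 in wild types. Their exact permutation p-values were 0.304 and 0.375. For Neurod6, Emx1 and Bhlhe22 the differences between genotypes were -0.01, 0.16 and -0.25 on the log2 scale (exact permutation p = 0.857, 0.714 and 0.268).

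Ratios between genes within a library do not depend on how libraries are scaled, and 4 were compared between genotypes in each fraction, 8 tests in all. The log2 ratio of Slc17a6 to Slc17a7 counts in Input was -2.12 ± 0.24 in heterozygotes (SD, n = 3) and -1.77 ± 0.13 in wild types (n = 5), a difference of -0.35 (exact permutation p = 0.0357, adjusted over the 8 tests 0.286). Heterozygous Input libraries held 0.246, 0.190 and 0.260 Slc17a6 counts per Slc17a7 count, and wild-type Input libraries 0.254, 0.294, 0.330, 0.300 and 0.294, so the groups overlapped by the value of hetBT13. In IP the same log2 ratio was -1.46 ± 0.22 in heterozygotes and -1.55 ± 0.27 in wild types (exact permutation p = 0.714). The Input difference was -0.19 among BT-named animals and -0.43 among animals named by number. Leaving out het729, het786, wt736, wt785, wtBT13 or wtBT14 gave exact permutation p-values of 0.0857 to 0.143, and without het786 the difference was -0.21.

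Bhlhe22 against Neurod2 had a log2 ratio in IP of -2.48 ± 0.23 in heterozygotes and -2.08 ± 0.27 in wild types (exact permutation p = 0.0893, adjusted 0.321). In Input the ratio was -1.42 ± 0.28 in heterozygotes and -1.73 ± 0.21 in wild types (exact permutation p = 0.143). Neurod6 against Neurod2 in Input was 2.27 ± 0.29 in heterozygotes and 1.89 ± 0.31 in wild types (exact permutation p = 0.161), and in IP 1.60 ± 0.29 in heterozygotes and 1.70 ± 0.22 in wild types (p = 0.571). Emx1 against Neurod2 gave p = 0.286 in Input and 0.786 in IP by the same exact permutation test. None of the 8 passed after adjustment.

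**Figure D5:**
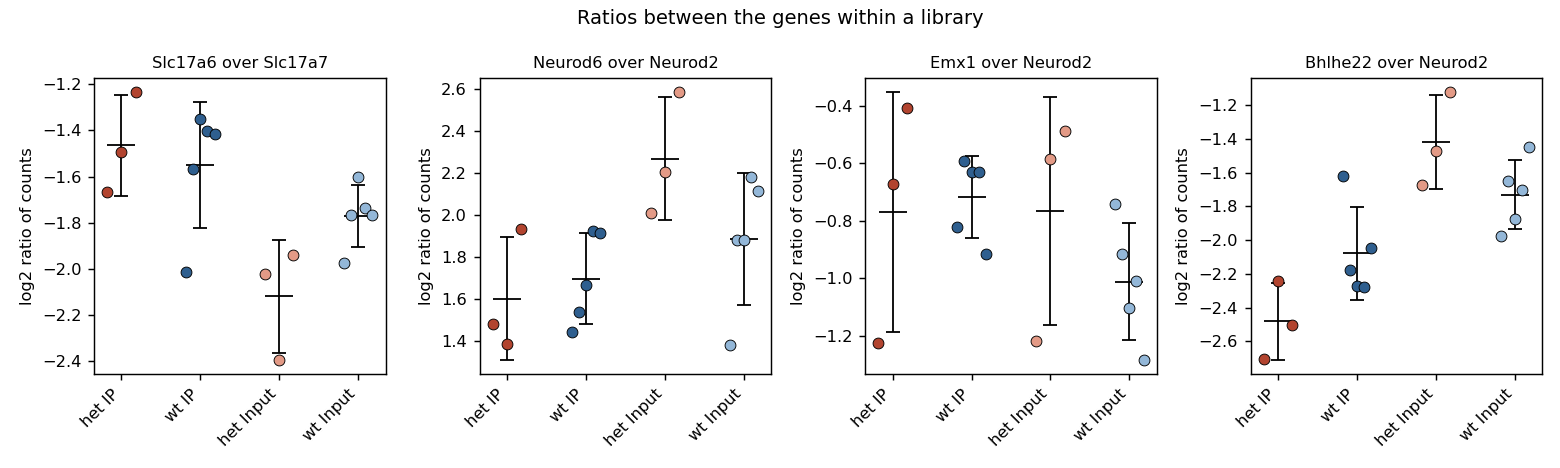
Log2 ratio of the counts of 2 genes in the same library (vertical axis, a scale of its own in each panel) for het and wt IP and Input libraries, with mean and SD as lines. The Slc17a6 to Slc17a7 ratio in Input averages -2.12 in heterozygotes and -1.77 in wild types, with 1 heterozygous point among the wild-type points.

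The genes also varied from library to library within a fraction. After the mean of each fraction was removed, log2 CPM of Slc17a7 and Slc17a6 correlated with r = 0.60 over the 16 libraries, and Emx1 and Neurod2 with r = 0.47. Neurod6 had a negative r with each of the other 5, between -0.46 with Bhlhe22 and -0.13 with Slc17a6. Libraries of 1 animal share a lysate and all levels share the scaling, so these values describe these libraries.

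Among 10329 genes with a mean of at least 10 CPM, the patterns most like Slc17a7 by this measure were those of Shank1 (r = 0.88), Cck (r = 0.88) and Zfp644 (r = 0.88). Slc17a6 was closest to Igf2r (r = 0.82), Scaf1 (r = 0.78) and Slit1 (r = 0.78), and Neurod2 to Rexo1 (r = 0.87), Nudc (r = 0.81) and Josd2 (r = 0.81). Neurod6 was closest to Fam216a (r = 0.87), Lias (r = 0.87) and Mir22hg (r = 0.85). Emx1 was closest to Ina (r = 0.82), Hdgfl2 (r = 0.81) and Maz (r = 0.81), and Bhlhe22 to Trhde (r = 0.82), Prss12 (r = 0.80) and Zfp592 (r = 0.80). No gene was on the nearest lists of 2 of the 6.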

How the data were processed

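Per the labels' protocols, RNA came from the cortex of 1 animal per sample and Smart-seq2 libraries were made, which mark neither strand nor single molecules. The deposited values are raw counts of reads over Ensembl genes, for which the submitters' processing notes name HTSeq and mm10. Version, aligner, annotation and strand setting are not given in the sources used here. In all there are 25317 genes in 20 libraries of 10 animals, of which 24873 genes were matched to a name.

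Tests used edgeR 4.0.16 under R 4.3.3, with filterByExpr (count minimum 10), TMM scaling, robust quasi-likelihood F tests, Benjamini-Hochberg adjustment over all tested genes, threshold 0.05. Each fraction had its own genotype fit of 3 against 5 libraries. A joint fit of 16 libraries, with a term for each animal as the block, gave IP against Input and the interaction, since the protocol takes both from 1 lysate. With group means removed, own pairs correlated across 14797 genes with r of 0.0545 to 0.217. This was above every other animal of the same genotype in 7 of 8 (wtBT14 0.0802 against 0.173). Exact permutation tests, two-sided, compared single genes on log2 CPM (prior count 1) and ratios of counts on the log2 scale. CPM per kb used the exonic length merged over all transcripts of a gene in GENCODE vM21.

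The 6 genes and all lists (158 genes, 156 in the table) were chosen with earlier results of these data known. From the lists, named genes are up to 4 called ones of smallest p per direction (up to 3 for markers of other cells), and the likeness lists hold the 3 highest correlations. A gene that this rule gives is not reported here. Scripts were tested on simulated data. Alternatives were DESeq2 1.42.0 and its size factors, no filter, each animal left out, the form of the animal names as a covariate, the IX and IXX libraries, and no block.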

Additional observations from a re-analysis of the deposited data

Results flagged for a closer look

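In groups of 5 libraries, the gap between an extreme library and its nearest neighbour was set against the range of the group. Of 12 groups checked (6 genes in wild-type IP and Input), 2 had a library that stood apart, and chance gives about 1 in 20. Bhlhe22 stood apart in the IP of wt734, at 24.8 CPM, where the other wild-type IP libraries held 14.0 to 17.0. Emx1 stood apart in the Input of wt734, at 41.3 CPM, where the other wild-type Input libraries held 21.0 to 26.1. Both libraries are from the same animal.

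The 4 heterozygous libraries with IX or IXX in their titles, which enter no comparison, included some with a level above every wild-type Input library, for 3 of the 6 genes. Neurod6 was at 222 CPM in het730IX, 234 in hetBT14IX and 256 in hetBT14IXX, where wild-type Input reached 221. Emx1 was at 43.4 CPM in het730IXX, where wild-type Input reached 41.3. Bhlhe22 was at 21.1 CPM in het730IX, 19.3 in het730IXX and 19.3 in hetBT14IX, where wild-type Input reached 18.7. The titles do not say how these libraries differ from the other Input libraries.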

How the results depend on the processing

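IP against Input was higher for Slc17a7, Slc17a6, Neurod2 and Emx1 in both genotypes under all 12 alternatives run for each, and for Neurod6 in wild types. Without the replicate block by animal, 6130 genes were called in heterozygotes, 7552 in wild types and 0 in the interaction, and the block changed no call of the 6 genes. The genotype comparison in IP called 3 genes with the DESeq2 test, that in Input 28 with no filter on low counts, and the interaction 11 with no filter, none of them among the 6; the cause was not tested. With the IX and IXX libraries added to Input, the log2 difference of Slc17a7 turned to 0.0570 by level and 0.0534 by the fit, and that of Emx1 to 0.00666 and 0.0102. That of Slc17a6 shrank to -0.27 by level. In that setting the log2 difference of the Bhlhe22 to Neurod2 ratio was 0.37 (exact permutation p = 0.0397) and that of Slc17a6 to Slc17a7 -0.33 (exact permutation p = 0.0159).

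Leaving out 1 animal at a time took the log2 genotype differences in Input across 0 for Slc17a7, with a range of -0.18 to 0.0483 by level and -0.19 to 0.0178 by the fit, for Emx1 (-0.17 to 0.14 and -0.23 to 0.14) and for Bhlhe22 (-0.0318 to 0.0949 and -0.0420 to 0.0789). The Slc17a6 to Slc17a7 ratio ran from -0.0309 to 0.19 in IP and from -0.44 to -0.21 in Input, where 6 of 8 omissions took the exact permutation p above 0.05, to at most 0.143. The Neurod6 to Neurod2 ratio ran from -0.26 to 0.00989 in IP, and Emx1 to Neurod2 from -0.23 to 0.18 in IP and from 0.11 to 0.47 in Input (exact permutation p = 0.0476 without het729). In the interaction Neurod6 ran from -0.0523 to 0.0328, Emx1 from -0.0220 to 0.24 and Neurod2 from 0.37 to 0.51. With 2 animals left in a group the exact permutation test has fewer arrangements, so its smallest p is larger. Bhlhe22, at 40 to 148 counts a library, has the least depth of the 6 genes, and no molecule tags bound its counting error.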

Other observations

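The 4 heterozygous libraries titled IX or IXX come from 2 animals, 2 libraries each. In the order het730IX, het730IXX, hetBT14IX and hetBT14IXX, Slc17a7 was at 123, 124, 130.3 and 122 CPM and Slc17a6 at 27.5, 29.7, 30.0 and 30.9 CPM, which lay within the range of wild-type Input for both transporter genes. For both genes all 4 also lay above the heterozygous Input libraries compared. Those held 86.6 to 115 CPM of Slc17a7 and 21.8 to 25.6 CPM of Slc17a6. Neurod2 was at 45.3, 65.0, 42.3 and 34.0 CPM, and hetBT14IXX was below every other Input library in it. Libraries of het730 differed most in Emx1, at 27.1 and 43.4 CPM, and in Neurod2.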
